A study of Mus musculus with 7 samples.

Results

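Kidney transcripts of 8 genes that reclaim bicarbonate or make ammonia were compared between mice given cisplatin with saline and mice given cisplatin with DXZ. The genes were taken by symbol from the deposited count table, which holds 54532 genes: the proton and bicarbonate carriers Slc9a3 and Slc4a4, the carbonic anhydrases Car2, Car4 and Car14, the water channel Aqp1, the glutamine carrier Slc38a3 and glutamate dehydrogenase, Glud1. All 8 passed the filter on low counts, in both groups. Cisplatin is a platinum drug that injures kidney tubules. Every mouse was a C57BL/6J animal of 6 to 8 weeks, male per the series' design text, and received cisplatin at 20 mg/kg by tail vein. No library therefore shows a kidney without cisplatin. The saline group holds 4 libraries. The DXZ group holds 3, from mice also given DXZ, spelled here as in the labels, at 40 mg/kg by tail vein 30 min before cisplatin and every 24 h afterwards for 3 days. Whether the libraries of a group came from separate animals is not in the labels, so p-values measure the spread between these libraries, which may in part be technical.

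The proximal tubule takes back nearly all filtered bicarbonate. A proton leaves the cell through the sodium-proton exchanger NHE3, encoded by Slc9a3, and meets filtered bicarbonate, and carbonic anhydrase on the luminal membrane turns the product into carbon dioxide and water. Inside the cell cytosolic carbonic anhydrase, encoded by Car2, remakes bicarbonate, which leaves across the basolateral membrane with sodium through NBCe1, encoded by Slc4a4. The same cells take up glutamine through SNAT3, encoded by Slc38a3, and release ammonia from it in steps that include the glutamate dehydrogenase encoded by Glud1, a route known to be raised in acidosis.

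Total counts were between 16058157 and 18133736 per library, and counts of the 8 genes lay between 173 and 31152. A pair of libraries stood apart on marker genes. Saline 1 had the highest summed level of 30 proximal tubule genes, at 56158 CPM (counts scaled to a common library size) against 23080 to 29538 in the other saline libraries. DXZ 1 had the highest summed levels of 12 endothelial, 12 macrophage and 9 fibroblast and matrix genes, at 806, 397 and 891 CPM, against 147 to 212, 77.1 to 132 and 63.9 to 109 CPM in DXZ 2 and DXZ 3. In saline these sums ran from 435 to 729, from 116 to 240 and from 153 to 595 CPM. For the endothelial and the fibroblast and matrix genes, DXZ 2 and DXZ 3 thus lay below all saline libraries. Results are also given without saline 1 and DXZ 1, an omission that keeps DXZ 2 and DXZ 3. Genes of the proximal tubule, thick ascending limb, intercalated cell and principal cell, which define kidney tissue, were detected in all 7 libraries.

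Car4 and Slc9a3 fell in DXZ kidneys, and no gene of the 8 rose. Car4, the carbonic anhydrase anchored to the luminal membrane, fell by 82.4% in mean CPM and Slc9a3 by 35.2%. Aqp1, Car14 and Slc4a4 were lower on average by 41.8%, 58.6% and 30.7% but did not pass, Car2 differed by 2.16%, and the 2 glutamine-to-ammonia genes Slc38a3 and Glud1 were higher on average without passing. Calls are by edgeR's quasi-likelihood test at a Benjamini-Hochberg adjusted p below 0.05 over all 15351 genes tested. By this rule 2 of the 8 genes were lower and 0 were higher, where 2.31% and 3.24% of all genes tested were; at an unadjusted p below 0.05 by the same test 5 of 8 were lower and 0 higher, where 11.4% of all genes were lower and 25.4% changed either way, and DESeq2 called 5 lower and 0 higher, where it called 5.82% of all genes lower and 7.1% higher. The median log2 fold change, DXZ over saline, was -0.58 over the 8 genes and 0.01 over all genes tested.

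Promoter sequence is shown for the genes that passed, Car4 and Slc9a3, and for the downstream of 2 starts listed for Slc4a4, whose counts overlapped between groups. The gene's count does not separate transcripts from its 2 starts, and the window of the upstream start is not printed because it lies in an annotated exon. Sequences are from RefSeq (GRCm38.p6), whose table held 6 of the 8 genes, all but Car2 and Slc38a3. Each run is the 250 bases before the start, 5′ to 3′, and holds no base of an annotated GENCODE exon. Capitals mark matches, on either strand, to GTTAAN (core of the HNF1 site), CAAAGTNCA (core of the HNF4 site), TATAAA or CCAAT, and no match overlapped another.
Car4, chr11:84957504-84957753, plus strand: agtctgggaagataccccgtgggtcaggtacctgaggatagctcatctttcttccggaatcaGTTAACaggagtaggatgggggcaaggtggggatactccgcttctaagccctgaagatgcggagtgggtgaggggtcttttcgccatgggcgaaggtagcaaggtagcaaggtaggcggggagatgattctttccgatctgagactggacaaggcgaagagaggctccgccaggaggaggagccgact
Slc9a3, chr13:74121163-74121412, plus strand: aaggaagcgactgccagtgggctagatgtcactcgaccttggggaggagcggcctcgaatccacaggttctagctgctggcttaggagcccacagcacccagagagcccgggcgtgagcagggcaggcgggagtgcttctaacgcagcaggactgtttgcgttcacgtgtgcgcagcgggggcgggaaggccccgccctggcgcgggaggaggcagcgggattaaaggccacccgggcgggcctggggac
Slc4a4, chr5:89027716-89027965, plus strand: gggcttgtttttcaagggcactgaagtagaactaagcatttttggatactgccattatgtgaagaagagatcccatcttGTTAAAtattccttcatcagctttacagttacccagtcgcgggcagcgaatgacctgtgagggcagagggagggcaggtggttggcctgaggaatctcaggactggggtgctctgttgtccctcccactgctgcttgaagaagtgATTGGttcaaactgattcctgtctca
The Car4 window held 1 HNF1 core, whose first base lies 188 bases before the start. HNF1 and HNF4 factors are known regulators of proximal tubule genes. The Slc9a3 window held none of the 4 patterns, and neither did those of Car14, Aqp1, Glud1 and the upstream Slc4a4 start, which are not printed, so 2 of 7 windows held a match. The Slc4a4 window held 1 HNF1 core at 171 bases and 1 CCAAT box, read on the opposite strand, at 26 bases before the start. These patterns are common: of 32851 windows of the same length, 21.6% held GTTAAN, 33.8% CCAAT, 12.4% TATAAA and 1.19% CAAAGTNCA. The windows were 56.4% (Car4), 67.6% (Slc9a3) and 48.8% (Slc4a4) G or C, beside a median of 52.4% over all windows. A match describes letters only.

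**Figure D1:**
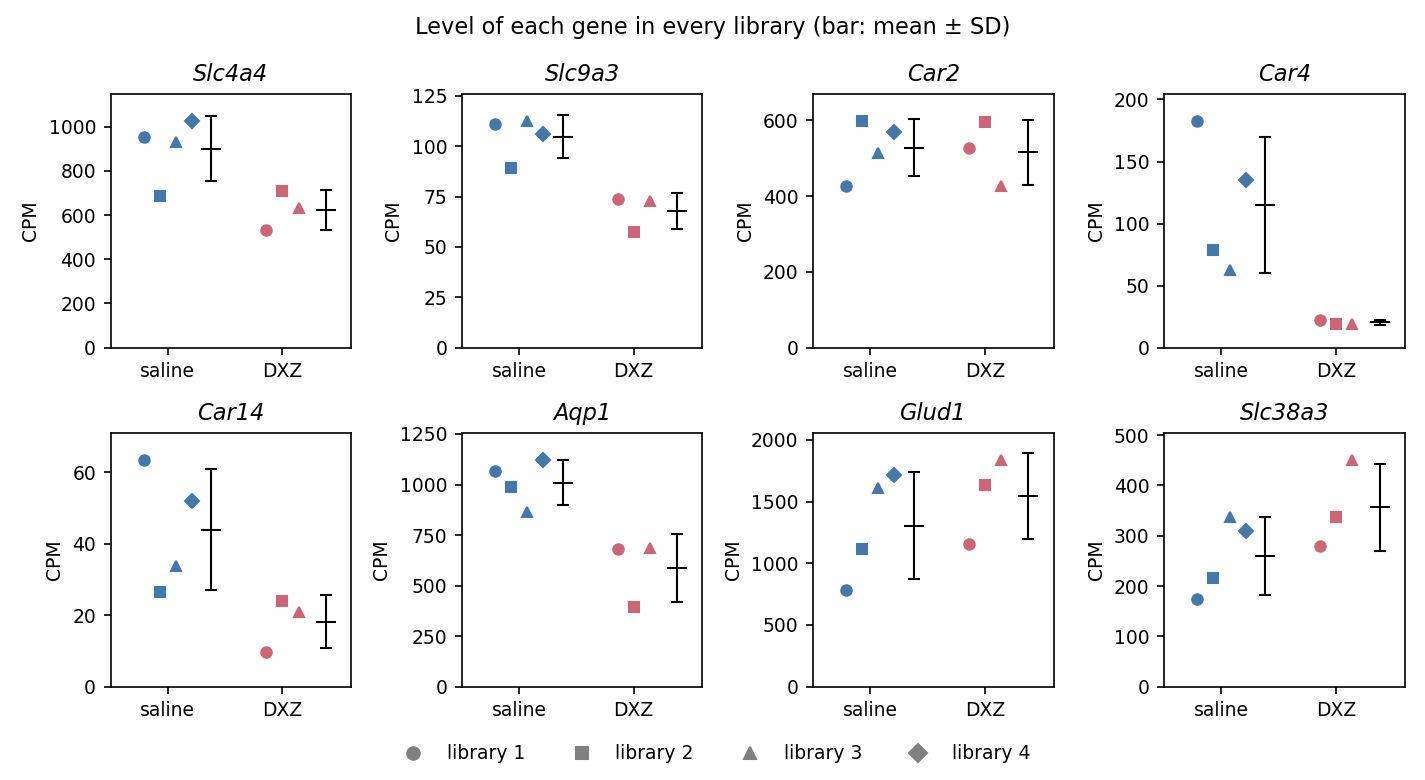
Level of each of the 8 genes in CPM (vertical axis, from 0) in every saline (blue) and DXZ (red) library, with the symbol giving the library number and the bar the mean ± SD. The groups lie apart for Slc9a3, Car4, Car14 and Aqp1, and overlap for Slc4a4, Car2, Glud1 and Slc38a3.

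Among the carriers, Slc9a3 (chromosome 13, 74121457 to 74169442, GRCm38, plus strand) was at 111, 89.3, 113 and 106 CPM in saline 1 to 4 and at 73.6, 57.3 and 72.6 CPM in DXZ 1 to 3. The groups did not overlap, and the lowest saline library, saline 2, lay above all DXZ libraries. The mean fell from 105 ± 10.7 (SD, n = 4) to 67.9 ± 9.13 CPM (SD, n = 3), which is -0.63 as a log2 fold change with an SE of 0.13 (edgeR adjusted p = 0.0379). The call did not hold without saline 1, saline 3, saline 4, DXZ 2 or DXZ 3 (edgeR adjusted p between 0.0706 and 0.102), although the log2 fold change stayed between -0.70 and -0.53 whichever single library was left out. Without saline 1 and DXZ 1 together it was -0.66 and passed (edgeR adjusted p = 0.0454).

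Slc4a4 (chromosome 5, 88886818 to 89239653, plus strand) was at 953, 689, 932 and 1028 CPM in saline 1 to 4 and at 531, 709 and 632 CPM in DXZ 1 to 3. Saline 2 lay below DXZ 2, so the groups overlapped, while the other saline libraries lay above all DXZ libraries. The means were 900.4 ± 147 and 624 ± 89.3 CPM, and the log2 fold change was -0.53 with an SE of 0.18, which did not pass (edgeR adjusted p = 0.110). It passed by DESeq2 (DESeq2 adjusted p = 0.0368) but under none of the other alternatives.

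Of the carbonic anhydrases, which turn carbon dioxide and water into bicarbonate and protons, Car4 (chromosome 11, 84957786 to 84966044, plus strand) showed the widest gap of the 8 genes. It was at 183, 78.8, 62.9 and 135 CPM in saline 1 to 4, and at 22.5, 19.1 and 19.2 CPM in DXZ 1 to 3. The saline libraries spread 2.91-fold, the DXZ libraries 1.18-fold, and the groups did not overlap. The mean fell from 115 ± 54.9 to 20.3 ± 1.91 CPM, -2.50 as a log2 fold change with an SE of 0.37 (edgeR adjusted p = 0.0209). The call did not hold without saline 4, DXZ 2 or DXZ 3 (edgeR adjusted p = 0.0747, 0.0749 and 0.0587), where the log2 fold change was between -2.48 and -2.42. In those fits 4, 1 and 141 of all genes tested passed, against 853 with all libraries. The unadjusted p of Car4 there lay between 0.000456 and 0.00126 by edgeR's test. Without saline 1 and DXZ 1 together Car4 had a log2 fold change of -2.27 and passed (edgeR adjusted p = 0.0182).

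Car14, a carbonic anhydrase with a membrane-spanning stretch (chromosome 3, 95897768 to 95904691, minus strand), was at 63.5, 26.6, 33.7 and 51.9 CPM in saline 1 to 4 and at 9.75, 23.9 and 20.9 CPM in DXZ 1 to 3. The groups did not overlap, but saline 2 and DXZ 2 lay close together. The log2 fold change was -1.27 (SE 0.38, edgeR adjusted p = 0.0874), which did not pass. Without DXZ 1, the lowest library, it was -0.97, and without saline 1 and DXZ 1 together -0.74. The gene's 3′ end overlaps Aph1a over 521 bases on the opposite strand, which had 11586 counts in all beside 3911 for Car14. Whether counting used strand is not given in the sources used here, so some Car14 counts could be Aph1a reads; Aph1a itself had a log2 fold change of -0.12.

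Car2 (chromosome 3, 14886273 to 14900770, plus strand), the abundant cytosolic form of tubule, intercalated and red blood cells, was at 427, 599, 514 and 570 CPM in saline 1 to 4 and at 527, 596 and 425 CPM in DXZ 1 to 3. The ranges were nearly the same. Its log2 fold change was -0.03 (SE 0.17, edgeR adjusted p = 0.930), and its sign was positive without saline 2, saline 4 or DXZ 3. Summed levels of 11 intercalated cell genes ran from 363 to 478 CPM in saline and from 379 to 422 in DXZ. The 8 red blood cell genes in the table summed to between 6.59 and 27.4 CPM in all 7 libraries, with Hbb-bt at 0 in each. Most of that sum was the anion exchanger gene Slc4a1, which the intercalated cell list also holds, and without it the other 7 genes summed to between 0.823 and 1.61 CPM.

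**Figure D2:**
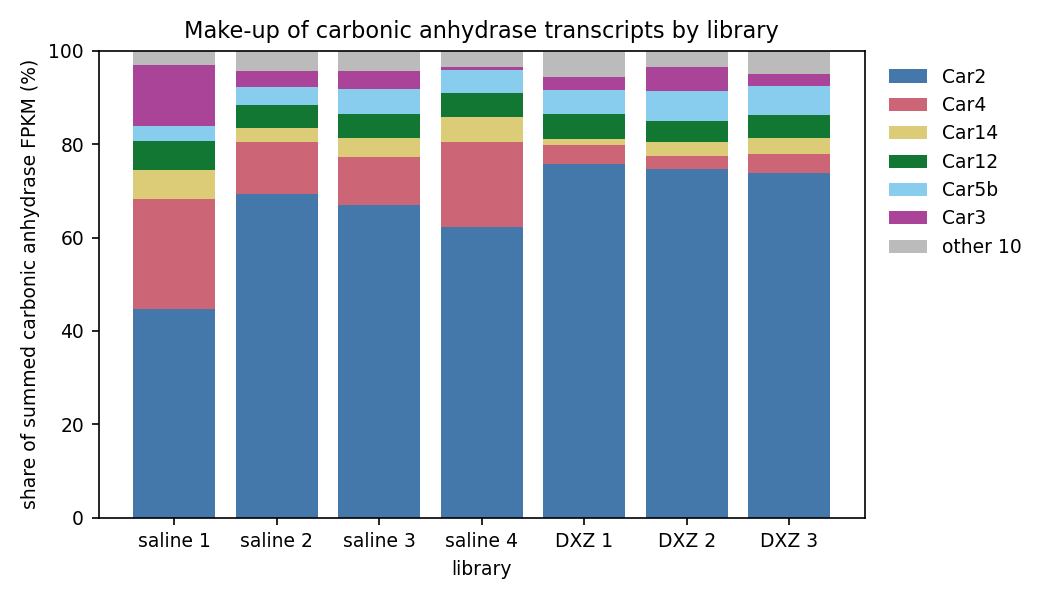
Share of each carbonic anhydrase in the summed FPKM of 16 carbonic anhydrase genes (vertical axis, percent, stacked bars, 1 per library) in the 4 saline and 3 DXZ libraries. The Car4 share lies between 10.1% and 23.5% in saline and between 2.95% and 4.11% in DXZ, and Car2 holds between 73.8% and 75.8% in every DXZ library.

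Per length, Car2 made up most carbonic anhydrase transcripts in each library except saline 1. These shares use the deposited FPKM, counts divided by gene length and scaled with 1 factor for each library, and cover 16 carbonic anhydrase genes. Car2 held 44.6%, 69.3%, 67.1% and 62.2% of the summed FPKM in saline 1 to 4, and for DXZ 1 to 3 its part was 75.8%, 74.6% and 73.8%. The Car4 share was 23.5%, 11.2%, 10.1% and 18.2% in saline 1 to 4, then 3.99%, 2.95% and 4.11% for DXZ 1 to 3. Saline 1 was thus lowest for the Car2 share and highest for the Car4 share, and also held 13.2% Car3, against 0.74% to 5.15% in the other libraries. The summed FPKM was 360 ± 34.3 in saline (SD, n = 4) and 283 ± 47.0 in DXZ (SD, n = 3), with DXZ 2 at 331, above saline 3 at 315. A share can change because another gene changes, and the shares rest on the same counts as the fold changes.

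Aqp1 (chromosome 6, 55336432 to 55348555, plus strand), the water channel of the proximal tubule and descending thin limb, also present in endothelium and red blood cells, was at 1066, 987, 862 and 1123 CPM in saline 1 to 4. In DXZ 1 to 3 it was at 680.2, 395 and 686 CPM. The groups did not overlap, and DXZ 2 was the lowest library. The log2 fold change was -0.78 (SE 0.21, edgeR adjusted p = 0.0704) and did not pass; it passed by DESeq2 (DESeq2 adjusted p = 0.00419). Without DXZ 2 it was -0.58. The 12 endothelial genes summed to 806, 212 and 147 CPM in DXZ 1 to 3 and to between 435 and 729 in saline, and their part in the Aqp1 values was not tested. Of those 12 genes 0 passed edgeR's test, at an unadjusted p below 0.05 also 0, and DESeq2 called 0. The 9 thin limb genes summed to between 154 and 464 CPM in saline and between 605 and 703 in DXZ. By edgeR's test 1 of them, the claudin gene Cldn4, rose, where 3.24% of all genes tested rose. Cldn4 lay between 62.2 and 105 CPM in saline and between 276 and 286 in DXZ, and without it the sums of the groups overlap. Corin and Cdh13 of this list had negative log2 fold changes (-1.13 and -0.29) and the rest positive ones.

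Neither gene of the glutamine-to-ammonia route passed the test. Slc38a3 (chromosome 9, 107650634 to 107669530, minus strand) was at 174, 217, 338 and 309 CPM in saline 1 to 4 and at 280.2, 337 and 451 CPM in DXZ 1 to 3. DXZ 3 was the highest library, and DXZ 1 and DXZ 2 lay within the saline range. The log2 fold change was 0.46 (SE 0.26, edgeR adjusted p = 0.308), which did not pass. It was 0.25 without DXZ 3 and 0.30 without saline 1.

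Glud1 (chromosome 14, 34310727 to 34345265, plus strand) was at 780.5, 1116, 1607 and 1712 CPM in saline 1 to 4 and at 1159, 1632 and 1839 CPM in DXZ 1 to 3. The groups overlapped over most of their ranges. Its log2 fold change was 0.24 (SE 0.29, edgeR adjusted p = 0.654), and 0.06 without saline 1, the lowest library. Saline 1 was the lowest of the saline libraries for Glud1, Slc38a3 and Car2, and the highest for Car4 and Car14.

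In both groups the 8 genes spanned a wide range of levels per length. In saline the order of mean FPKM was Aqp1 (383 ± 43.9, SD, n = 4), Glud1 (309 ± 104), Car2 (217 ± 31.2), Slc4a4 (82.9 ± 13.8), Car4 (58.3 ± 27.9), Slc38a3 (49.0 ± 14.6), Slc9a3 (19.0 ± 1.96) and Car14 (17.2 ± 6.62). Library values of neighbours in this order overlapped, except between Car2 and Slc4a4 and between Slc38a3 and Slc9a3. In DXZ, Glud1 came first (364 ± 85.6 FPKM, SD, n = 3), ahead of Aqp1 (221 ± 61.0) and Car2 (211 ± 36.0). Slc38a3 (67.0 ± 16.8) and Slc4a4 (57.3 ± 8.92) followed, then Slc9a3 (12.2 ± 1.53), Car4 (10.2 ± 0.83) and Car14 (7.12 ± 2.98). There, library values of neighbours overlapped between Aqp1 and Car2, between Slc38a3 and Slc4a4, and between Slc9a3 and Car4.

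CPM of the 2 groups did not overlap for 4 of the 8 genes, Slc9a3, Car4, Car14 and Aqp1, each lower in DXZ, where 11.3% of all genes tested were lower without overlap. Proximal tubule genes moved in the same direction. Of the 30 proximal tubule genes, which leave out the 8 genes, 13 fell and 0 rose by edgeR's test, where 2.31% of all genes tested fell. DESeq2 called 26 of the 30 lower, where it called 5.82% of all genes lower. The median log2 fold change of the 30 genes was -1.29, and they summed to between 15786 and 18966 CPM in the 3 DXZ libraries. In bulk tissue, fewer proximal tubule cells and less RNA per cell cannot be told apart. The part of this list's fall in the values of the 8 genes was not tested. The Car4 protein is also known from the thick ascending limb and from capillary endothelium. The 9 thick ascending limb genes summed to between 2604 and 4439 CPM in saline and to 3475, 1260 and 1728 CPM in DXZ 1 to 3. Their median log2 fold change was -0.56. By edgeR's test 1 of them fell (Egf), 5 were lower at an unadjusted p below 0.05, and DESeq2 called 4 lower, with 0 higher in each case. Over all genes tested these shares were 2.31%, 11.4% and 5.82%. The part of these cell types in the Car4 values was not tested.

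**Figure D3:**
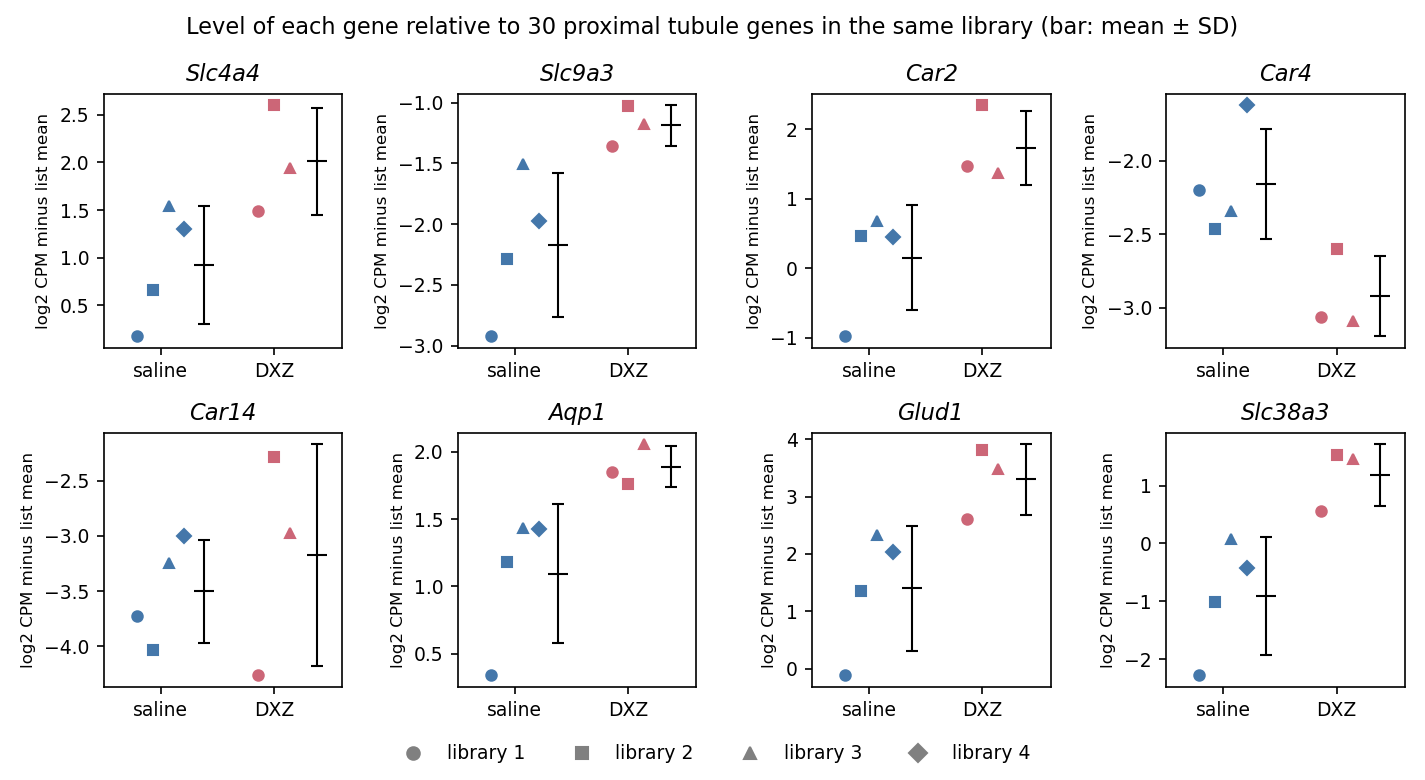
Log2 CPM of each gene less the mean log2 CPM of 30 proximal tubule genes in the same library (vertical axis, not starting at 0), for saline (blue) and DXZ (red) libraries, with the bar giving the mean ± SD. Car4 is the only panel of the 8 in which all DXZ libraries lie below all saline libraries.

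To set each gene beside its segment, the mean log2 CPM of the 30 proximal tubule genes was subtracted from the gene's log2 CPM in the same library. That mean was 8.88 in saline and 7.27 in DXZ. By this measure Slc9a3, Car2, Aqp1, Glud1 and Slc38a3 were higher in DXZ with no overlap, but so were 84.6% of all genes tested (84.9% did not overlap in either direction), a share above the 5 of 8 here. Car4 was lower in DXZ with no overlap, as were 0.248% of all genes tested. The list itself reaches further, since 7 of its 30 genes had a lower log2 fold change than Car4 (-3.56 to -2.88), so this position is not particular to Car4. It was at -2.20, -2.47, -2.35 and -1.62 in saline 1 to 4 and at -3.06, -2.60 and -3.09 in DXZ 1 to 3, so saline 2 and DXZ 2 lay only a little apart. Its mean was -2.16 ± 0.374 in saline (SD, n = 4) and -2.92 ± 0.273 in DXZ (SD, n = 3), a difference of -0.76 (two-sided exact permutation p = 0.0286, the smallest that 35 splits can give; 0.0762 adjusted over the 8 genes). Slc4a4 differed by 1.09 (exact permutation p = 0.0857, adjusted p = 0.0980) and Car14 by 0.33 (exact permutation p = 0.571, adjusted p = 0.571), both with overlap. Car2 and Aqp1 had the same p as Car4 in the opposite direction, with differences of 1.58 and 0.79 (exact permutation p = 0.0286). Slc9a3, Glud1 and Slc38a3, also higher in DXZ, each had an exact permutation p of 0.0571. With these libraries no gene of the 8 passed after adjustment, and a gene alone at the smallest p could not have. The list was chosen with earlier results of these data known, so these p-values give no independent support. With the median of the list in place of its mean, Slc9a3 overlapped between the groups and Car4 did not.

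**Figure D4:**
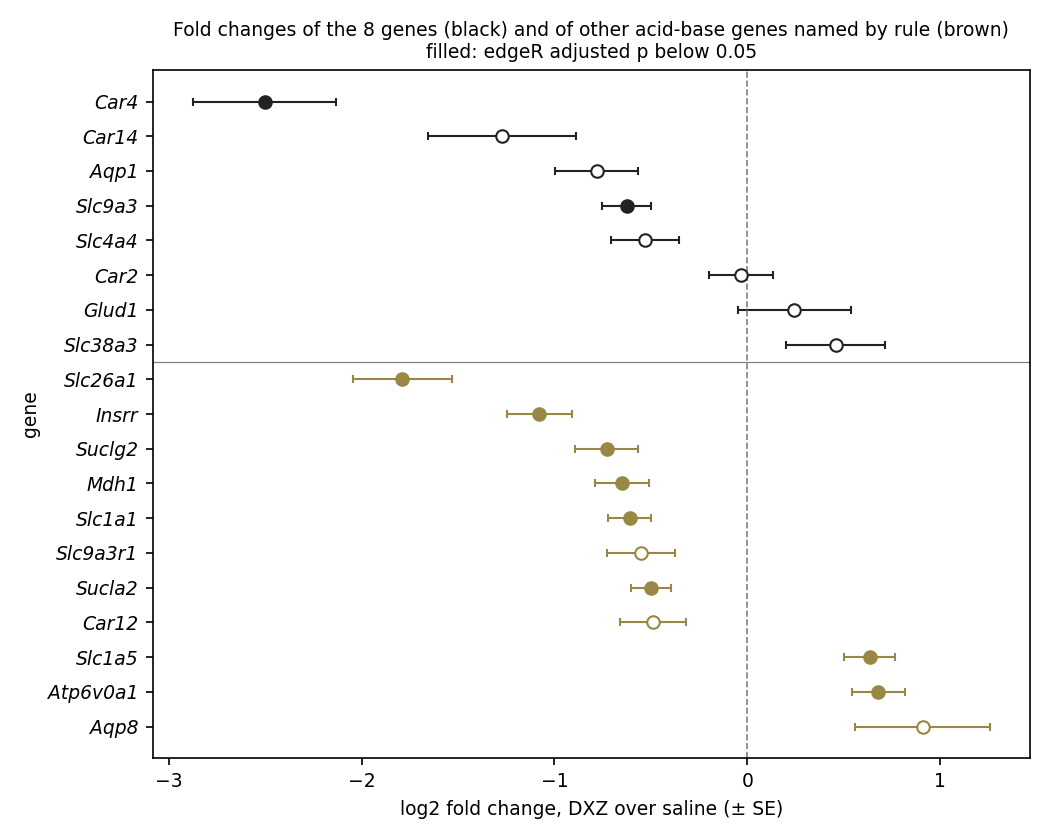
Log2 fold changes, DXZ over saline, with SE, of the 8 genes (black) and of the other acid-base genes named by rule (brown); filled points passed edgeR's test. Car4 at -2.50 and Slc26a1 at -1.79 lie farthest to the left.

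The other genes of renal acid-base transport were taken from 8 lists with 106 genes, of which 98 could be tested. By edgeR's test 6 fell and 2 rose, or 8.16% of them, where 5.56% of all genes tested changed, and their median log2 fold change was -0.08. DESeq2 called 14 lower and 4 higher, where it called 12.9% of all genes. Of 12 bicarbonate and chloride carriers 1 fell (2 by DESeq2): Slc26a1, a basolateral anion exchanger for sulfate, oxalate and bicarbonate. It was at 80.5, 50.8, 49.7 and 65.3 CPM in saline 1 to 4 and at 23.7, 12.5 and 17.3 CPM in DXZ 1 to 3, with no overlap (log2 fold change -1.79, SE 0.26, edgeR adjusted p = 0.0206). It lost its call without saline 4, DXZ 2 or DXZ 3. Of 9 sodium-proton exchangers and their regulators 0 changed by edgeR, 2 were lower at an unadjusted p below 0.05, and DESeq2 called 2 lower. Slc9a3r1, which encodes the NHERF1 scaffold of NHE3, had the lowest p of that list, with means of 429 ± 80.8 CPM in saline and 293 ± 42.7 in DXZ (edgeR adjusted p = 0.1001).

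Of 10 other carbonic anhydrases tested 0 changed by edgeR, 1 was lower at an unadjusted p below 0.05, and DESeq2 called 0. Over all genes 11.4% were lower at that unadjusted p, and 25.4% changed either way. The other carbonic anhydrase of lowest p was Car12, a membrane form, at 148 ± 28.9 CPM in saline and 105 ± 14.2 in DXZ (edgeR adjusted p = 0.120). Of 7 other aquaporins 0 changed by edgeR, 2 were higher at an unadjusted p below 0.05, and DESeq2 called 0. Aqp8 had the lowest p of these, at 1.43 ± 0.534 and 2.70 ± 0.638 CPM (edgeR adjusted p = 0.151).

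Of 14 genes of glutamine uptake and ammonia handling 1 fell and 1 rose (2 and 2 by DESeq2). Over all genes tested 2.31% fell and 3.24% rose (5.82% and 7.1% by DESeq2). At an unadjusted p below 0.05 by edgeR 4 of the 14 were lower and 2 higher, where 25.4% of all genes changed either way. Slc1a1, which encodes the luminal glutamate transporter EAAT3, was at 181, 159, 157 and 185 CPM in saline 1 to 4 and at 99.3, 117 and 119.6 CPM in DXZ 1 to 3 (log2 fold change -0.61, SE 0.11, edgeR adjusted p = 0.0300). Slc1a5, which encodes the neutral amino acid transporter ASCT2, was at 54.1, 61.1, 61.3 and 44.1 CPM in saline 1 to 4 and at 78.3, 86.0 and 92.5 CPM in DXZ 1 to 3 (log2 fold change 0.63, SE 0.13, edgeR adjusted p = 0.0388). Neither overlapped between groups. Slc1a1 kept its call only without saline 3 or DXZ 1, and Slc1a5 only without DXZ 1, when single libraries were left out. Of enzymes named here after their values were seen, Glul, glutamine synthetase, had a log2 fold change of -0.22 and Pck1, the cytosolic carboxykinase that draws on the carbon left from glutamine, of -0.21 (edgeR adjusted p = 0.616 and 0.719). Neither passed.

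A list of 17 genes covered the handling of 2-oxoglutarate, the carbon skeleton left after glutamine loses its nitrogen, and of malate. Of these, 3 fell and 0 rose by edgeR, where 2.31% of all genes tested fell. DESeq2 called 7 lower and 0 higher, where it called 5.82% of all genes lower. At an unadjusted p below 0.05 by edgeR 8 were lower and 1 higher, where 11.4% of all genes were lower. Mdh1, the cytosolic malate dehydrogenase, had means of 1234 ± 149 CPM (saline) and 786 ± 32.4 CPM (DXZ), and fell by 0.65 on the log2 scale (edgeR adjusted p = 0.0434). Suclg2 and Sucla2, the alternative beta subunits of succinate-CoA ligase, fell by 0.73 and 0.50 on the same scale, with edgeR adjusted p-values of 0.0452 and 0.0376. Each of these 3 genes was lower in all DXZ libraries than in all saline libraries. When single libraries were left out, Mdh1 kept its call only without saline 3, Sucla2 only without saline 3 or DXZ 1, and Suclg2 under no such omission.

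Of 21 proton pump subunit genes 1 rose and 0 fell (2 and 0 by DESeq2). Over all genes tested 3.24% rose and 2.31% fell (7.1% and 5.82% by DESeq2). At an unadjusted p below 0.05 by edgeR 3 of the 21 were higher and 1 lower, where 25.4% of all genes changed either way. The one called by edgeR was Atp6v0a1, a membrane subunit, with means of 70.8 ± 6.28 CPM (saline) and 113 ± 20.1 CPM (DXZ). Its log2 fold change was 0.68 (edgeR adjusted p = 0.0355), and of the 7 omissions of a single library it kept its call only in that of DXZ 1. Of 8 genes of acid sensing and signalling 1 fell and 0 rose by edgeR and by DESeq2, beside the same shares of all genes. At an unadjusted p below 0.05 by edgeR 1 of the 8 was lower and 1 higher. Insrr, encoding an insulin receptor relative known to sense alkali, was at 14.7, 16.8, 13.4 and 19.3 CPM in saline 1 to 4 and at 7.04, 8.53 and 7.20 CPM in DXZ 1 to 3 (log2 fold change -1.08, SE 0.17, edgeR adjusted p = 0.0215). It lost its call without saline 4, DXZ 2 or DXZ 3.

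The genes whose library profiles lay nearest to 7 of the 8 were sought among the 9630 genes that averaged 10 CPM or more, by the root mean square difference of centred log2 CPM over the 7 libraries. Nearest to Slc4a4 were Pdzrn3 (0.067), Deptor (0.092) and the glutamine carrier Slc38a7 (0.096), while Slc4a4 itself varied by 0.327 about its own mean. Nearest to Slc9a3 was Wdfy3 (0.083), to Car2 Fam136a (0.064), to Aqp1 Acad12 (0.058), to Glud1 Usp53 (0.095) and to Slc38a3 Tmprss2 (0.088). Car14 had no neighbour as close, its nearest being Dhtkd1 (0.313, with Car14 varying by 0.825 about its own mean). These distances describe 7 libraries that share 1 group difference.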

How the data were processed

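RNA came from 7 kidney samples, 4 saline and 3 DXZ, by Trizol extraction (labels' protocol). Whole-number counts, not normalized, were read from the authors' deposited gene table. The authors' deposited FPKM are those counts divided by gene length and 1 constant per library (exact to rounding), so they are no independent measurement. HISAT2, StringTie and mm9 are named, without roles, in the submitters' processing notes; the counting program is not given in the sources used here. Gene coordinates in the tables matched GENCODE M21 (GRCm38) for 53499 of 54409 shared identifiers (98.3%), and for all 8 genes, and are taken as GRCm38.

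The whole count table was fitted in R 4.3.3 with edgeR 4.0.16 (filterByExpr, TMM, quasi-likelihood F test, Benjamini-Hochberg). Of 54532 genes, 27180 had a count and 15351 were tested. SE is the log2 fold change over the square root of F. CPM use TMM-adjusted library sizes; log2 CPM add a prior count of 2. The test was checked on simulated data. Alternatives were median-of-ratios factors, no filter, at least 1 CPM in 3 libraries, DESeq2 1.42.0, limma 3.58.1 voom with quality weights, limma on log2(FPKM + 1) or + 0.1 with or without a filter at FPKM 1, a replicate block, each library left out, and saline 1 and DXZ 1 left out. Replicates differed by 15.1 to 99.1 times sampling noise, so none is a copy. The 8 genes and all lists were chosen with earlier results of these data known. Named genes were the 8, up to 3 called members of each acid-base list by lowest p (otherwise its member of lowest p), called or undetected markers where a result turns on them, and nearest profiles; a few results are not reported here. All value columns were used.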

Additional observations from a re-analysis of the deposited data

Results flagged for a closer look

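In the 4 saline libraries, Car2 relative to the 30 proximal tubule genes had 1 library far from the others. Saline 1 was at -0.98 on the log2 scale and saline 2 to 4 were at 0.46, 0.68 and 0.45, so that the gap took up 0.859 of the group's range. Car2 in CPM had no such gap. Chance marks about 1 group in 20 in this way, and 16 groups were examined.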

How the results depend on the processing

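Calls depended on the libraries and the test more than the fold changes did. The number of all genes changed (853), of the 8 genes changed (2) and of other acid-base genes changed (8) was 2027, 5 and 18 by DESeq2, 145, 0 and 1 by limma on log2(FPKM + 1) without a filter, and 85, 1 and 1 with the replicate block. Leaving out single libraries gave 1 to 1574, 0 to 2 and 0 to 11. All genes changed numbered 374, 296, 426 and 4 without saline 1 to 4 in turn. Without DXZ 1 to 3 in turn the number was 1574, 1 and 141. The calls lost by single genes when a library was left out stand beside these totals. All genes changed numbered 1332 without saline 1 and DXZ 1 together. The 0 of the 8 genes arose by edgeR without saline 4, DXZ 2 or DXZ 3, where 4, 5 and 5 of them were lower at an unadjusted p below 0.05. Car4 kept a negative log2 fold change, from -2.71 to -2.19, under all 17 alternatives and passed under 13; Slc9a3 kept one from -0.70 to -0.53 and passed under 10. Car2 turned positive with the replicate block (0.0076), and ran from -0.16 to 0.087 with single libraries left out, being positive without saline 2, saline 4 or DXZ 3. The other 5 genes kept their sign under all 17. Glud1 and Slc38a3 passed under none, and Slc4a4, Car14 and Aqp1 under DESeq2 only. Relative to the proximal tubule list the number of genes without overlap (6) was 5 to 8. With 3 libraries in a group, changes such as those of Slc4a4 and Slc38a3 could go uncalled. Larger log2 fold changes also went uncalled by edgeR, as for Car14 (-1.27) and Aqp1 (-0.78), while that of Sucla2 (-0.50) was called. Same-numbered libraries deviated from their group means with correlations of 0.258, -0.088 and 0.226, so the numbers were not taken to pair them; saline 4 has no partner. Saline 1 and saline 3 correlated best with their own number and saline 2 with DXZ 1.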
